A study of Mus musculus with 4 samples.

Results

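Scavenger receptors are the proteins through which macrophages take up modified low-density lipoprotein, and 10 genes of this kind were examined for open chromatin in cells loaded with oxidized LDL. The genes were Cd36, Scarb1, Scarb2, Msr1, Marco, Olr1, Lrp1, Stab1, Cxcl16 and Cd68, chosen by name from 21440 protein-coding genes with a known strand. ATAC-seq, in which the Tn5 transposase inserts sequencing adapters into accessible DNA, had been performed on wild-type RAW264.7 cells, an immortal line of mouse macrophages. All cells were exposed to 25 ug/mL DIL-oxLDL, a fluorescently marked oxidized LDL, for 24 h. The control group also received DMSO (0 ug/mL esculetin, n = 2 libraries) and the esculetin group 40 ug/mL esculetin, a plant coumarin (n = 2 libraries). No cells without DIL-oxLDL were among the samples, and nothing in the labels stated that the libraries of a group came from separate cultures. For each gene, every listed peak was read from 10 kb before its 5′ end to its 3′ end, in coordinates of the mouse build mm10. A peak was called a promoter peak when its summit lay within 1 kb of an annotated transcription start site (TSS). In these windows the 4 libraries held 49 peaks, which merged into 22 regions out of 36037 in the whole series.

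Scavenger receptors are not limited by sterol feedback, and macrophages that keep taking up oxidized LDL through them fill with lipid droplets and become foam cells. The family is defined by ligand and not by ancestry. CD36 and SR-BI (Scarb1) are class B receptors anchored in the membrane at both ends, SR-A (Msr1) and MARCO are collagen-like class A receptors, LOX-1 (Olr1) is a lectin, CXCL16 is a membrane-bound chemokine, and LRP1 is a giant endocytic receptor for lipoprotein remnants. LIMP-2 (Scarb2) and CD68 sit mainly in lysosomal membranes, and stabilin-1 (Stab1) is an endocytic receptor of tissue macrophages and sinusoidal endothelium.

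The libraries differed in the length of their peak lists, which bears on every count given here. The lists of control replicates 1 and 2 ran to 19595 and 27833 peaks, those of esculetin replicates 1 and 2 to 8677 and 12792 peaks. Depth did not follow the same order, since the genome-wide background coverage was 6.51 and 4.08 for the controls against 4.97 and 4.10 for the esculetin libraries. Peak height was measured in 2 ways. The percentile is the place of a peak's −log10 p within the list of its own library, from 0 for the weakest to 100 for the strongest, and it moves with the length of the list. Coverage over background is the coverage at the summit divided by the genome-wide background coverage of that library, both solved from the deposited fold and p, and it corrects for depth. The weakest listed peaks stood at 2.61 and 3.19 times background for control replicates 1 and 2 and at 3.02 and 3.17 times for esculetin replicates 1 and 2, but a peak is called against its local background, so a region without one can hold signal at or above that height where the local background is high. Of 10 macrophage marker genes, a promoter peak was listed at 5 and 6 in the controls against 1 and 3 after esculetin. The shares of all coding genes with one were 40.7% and 42.1% against 30.1% and 37.9%. Spi1, which encodes the macrophage factor PU.1, had one in all 4, Ptprc and Fcgr1 in both controls only, Laptm5 and Tyrobp in all but esculetin replicate 1 and Lyz2 in control replicate 2. Adgre1, Csf1r, Itgam and Cd52 had none in any library. No promoter peak was listed in any library at the 8 epithelial, 4 fibroblast, 2 endothelial, 3 lymphocyte and 1 hepatocyte markers. Peaks elsewhere in the windows of the epithelial markers numbered 4 in control replicate 1, 1 in control replicate 2 and 0 in both esculetin libraries. Those of the fibroblast markers numbered 8 in control replicate 2 and 0 in the other libraries, those of the endothelial markers 2 in each control and 1 in each esculetin library, and those of the lymphocyte and hepatocyte markers 0 throughout. The part of these differences in the results for the receptors was not tested.

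To show the promoters on which the results turn, the 250 bases before the TSS are printed for Cd36, which had no promoter peak in any library, and for Scarb2, Lrp1 and Cd68, which had one in at least 3 libraries. The sequences are from RefSeq (GRCm38.p6, the same primary assembly as mm10), read 5′ to 3′ along the gene, and all 4 genes lie on the minus strand. Capitals mark matches on either strand to the motifs named after them.
Cd36 (second TSS, chr5:17835897-17836146): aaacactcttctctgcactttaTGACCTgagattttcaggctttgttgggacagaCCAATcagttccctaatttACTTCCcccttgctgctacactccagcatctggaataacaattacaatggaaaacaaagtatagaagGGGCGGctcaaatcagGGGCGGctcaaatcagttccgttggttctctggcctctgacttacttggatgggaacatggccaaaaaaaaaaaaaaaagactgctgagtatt
Scarb2 (chr5:92505658-92505907): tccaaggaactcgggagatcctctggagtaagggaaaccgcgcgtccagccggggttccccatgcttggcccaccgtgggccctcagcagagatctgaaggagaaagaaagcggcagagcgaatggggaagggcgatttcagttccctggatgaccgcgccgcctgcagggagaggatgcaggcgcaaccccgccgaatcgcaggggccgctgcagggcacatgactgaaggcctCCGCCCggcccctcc
Lrp1 (chr10:127621149-127621398): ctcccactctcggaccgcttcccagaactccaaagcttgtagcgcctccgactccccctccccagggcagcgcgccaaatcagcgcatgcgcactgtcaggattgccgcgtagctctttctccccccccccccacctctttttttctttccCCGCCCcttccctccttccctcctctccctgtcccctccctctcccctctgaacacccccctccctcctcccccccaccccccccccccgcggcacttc
Cd68 (chr11:69666171-69666420): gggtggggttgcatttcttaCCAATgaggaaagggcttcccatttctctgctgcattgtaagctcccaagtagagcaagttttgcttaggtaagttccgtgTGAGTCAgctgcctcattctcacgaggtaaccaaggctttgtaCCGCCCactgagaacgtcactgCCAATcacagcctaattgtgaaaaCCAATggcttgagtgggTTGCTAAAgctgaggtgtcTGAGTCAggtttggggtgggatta

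A set of 9 short DNA words were searched on both strands in the same 250 bases of 32817 RefSeq promoters, and no marked match overlapped another in the 4 sequences. The C/EBP word TTGCNNAA occurred in 9.57% of all promoters and, among 7 receptor genes with an entry, in Cd68, at bases −43 to −36 from the TSS. The AP-1 word TGANTCA, present in 6.75% of all promoters, occurred at 2 places in Cd68, at −149 to −143 and at −24 to −18, and at 1 in Olr1. The NFY word CCAAT, present in 33.8% of all, was found in Cd36, Olr1 and Stab1 and at 3 places in Cd68. The Sp/KLF word GGGCGG, present in 32.7%, was found in Scarb2, Lrp1, Cd68 and at 2 places in Cd36. The PU.1 word GGAAGT (19.7% of all) was found in Cd36, and the nuclear receptor word AGGTCA (14.0%) in Cd36 and Olr1. The RUNX word TGTGGT (14.0%), the E-box CACGTG (6.02%) and the TATA box word TATAAA (12.4%) matched none of the 7. Scarb2 and Lrp1 had the highest G+C content of the 7, 65.6% and 67.2%, against 43.2% in Cd36, 49.2% in Cd68 and a median of 52.4% over all promoters. The other entries, Olr1, Marco and Stab1, held 45.2%, 47.6% and 57.2% G+C, and these 3 genes had no promoter peak in any library. These matches describe the letters of the window and are not evidence of binding.

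Fewer peaks were listed at the receptor genes in the esculetin libraries, whose lists were also shorter as a whole. Control replicates 1 and 2 held 15 and 20 peaks in the 10 windows, and esculetin replicates 1 and 2 held 6 and 8. The group means were 17.5 ± 3.54 (SD, n = 2) and 7 ± 1.41 (SD, n = 2), a ratio of 2.5. Both esculetin libraries lay below both control libraries, with a two-sided exact permutation p of 0.33, which is the smallest p that 2 against 2 libraries allow. Per 10000 peaks of the list, the same libraries held 7.70 and 7.21 against 6.99 and 6.31 peaks, or 7.46 ± 0.347 against 6.65 ± 0.483 (SD, n = 2, exact permutation p = 0.33). The groups still did not overlap on this scale, but the ratio of the means was 1.12. When each list was cut to its 8581 strongest peaks, the order of the means turned, with 4 in the control and 5.5 in the esculetin group (exact permutation p = 0.67). Among the peaks kept were some at the neighbouring gene Eif4a1, in the Cd68 window. Those at its start ranked 1055 and 1432 in the esculetin lists against 2923.5 and 11146.5 in control replicates 1 and 2. Those further inside it ranked 4588.5 and 5634 after esculetin and 27077 in control replicate 2. Their part in the turn was not tested. The windows held 24.4 and 32.6 peaks per Mb for the controls and 9.77 and 13.0 for the esculetin libraries, against 14.5, 21.1, 7.41 and 10.3 per Mb over the windows of all protein-coding genes. Each library thus held more peaks per Mb in these windows than in those of coding genes as a whole, a difference that was not tested. The peaks counted include those at Eif4a1. Of the 6 and 8 peaks of esculetin replicates 1 and 2, 2 and 3 lay in the Cd68 window, most of them at or inside Eif4a1. Without peaks at promoters of other genes, the mean number per library was 15.5 in the control and 5 in the esculetin group.

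**Figure D1:**
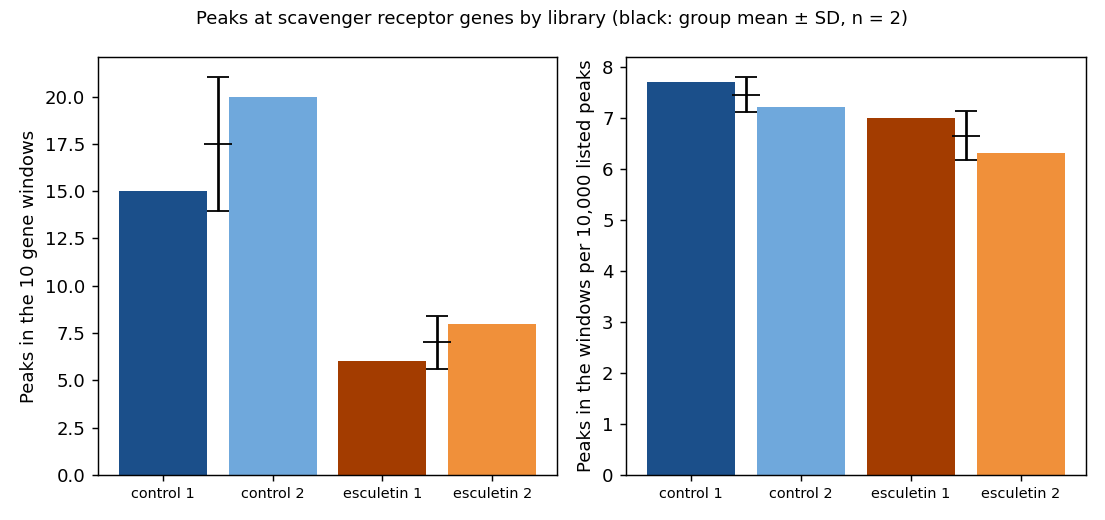
Peaks in the windows of the 10 receptor genes in each library (left) and the same number per 10000 listed peaks (right). Bars are single libraries and the black marks are the group mean ± SD (n = 2). The controls hold 15 and 20 peaks and the esculetin libraries 6 and 8, while per 10000 listed peaks the 4 values run from 6.31 to 7.70.

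Of the 22 regions, 4 were called in all 4 libraries (18.2%, against 17.2% of all regions), and they lay at Cd36, Scarb1, Lrp1 and upstream of Cd68. Regions of both controls but neither esculetin library numbered 5 (22.7%, against 13.9% of all regions), at Cd36, Msr1 and Scarb1 and at 2 places in Lrp1. All 5 lay inside the gene and none at a promoter. Control replicate 2 alone gave 7 regions (31.8%, against 35.1% of all), and control replicate 1 alone gave 1, in Cd36 (12.2% of all regions). The promoters of Scarb2 and Cd68 were called in every library but esculetin replicate 1, a pattern held by 6.11% of all regions. No region was called in both esculetin libraries only, a pattern of 0.832% of all regions. In all, 13 of 22 regions were called in no esculetin library (59.1%, against 61.1% of all regions). Of the 9 regions called in at least 1 esculetin library, 8 were also called in a control library (74.6% over the whole series), the exception being a peak in Stab1 in esculetin replicate 2. By place, 10 of 13 regions inside a gene, 3 of 5 upstream regions and 0 of 4 promoter regions lacked an esculetin peak. Over the windows of all protein-coding genes, the same held for 81.3% of regions inside the gene, 60.4% of upstream regions and 24.4% of regions at the gene's own promoter, an order shared by the receptor genes. These shares describe 22 regions of 7 genes and were not tested.

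**Figure D2:**
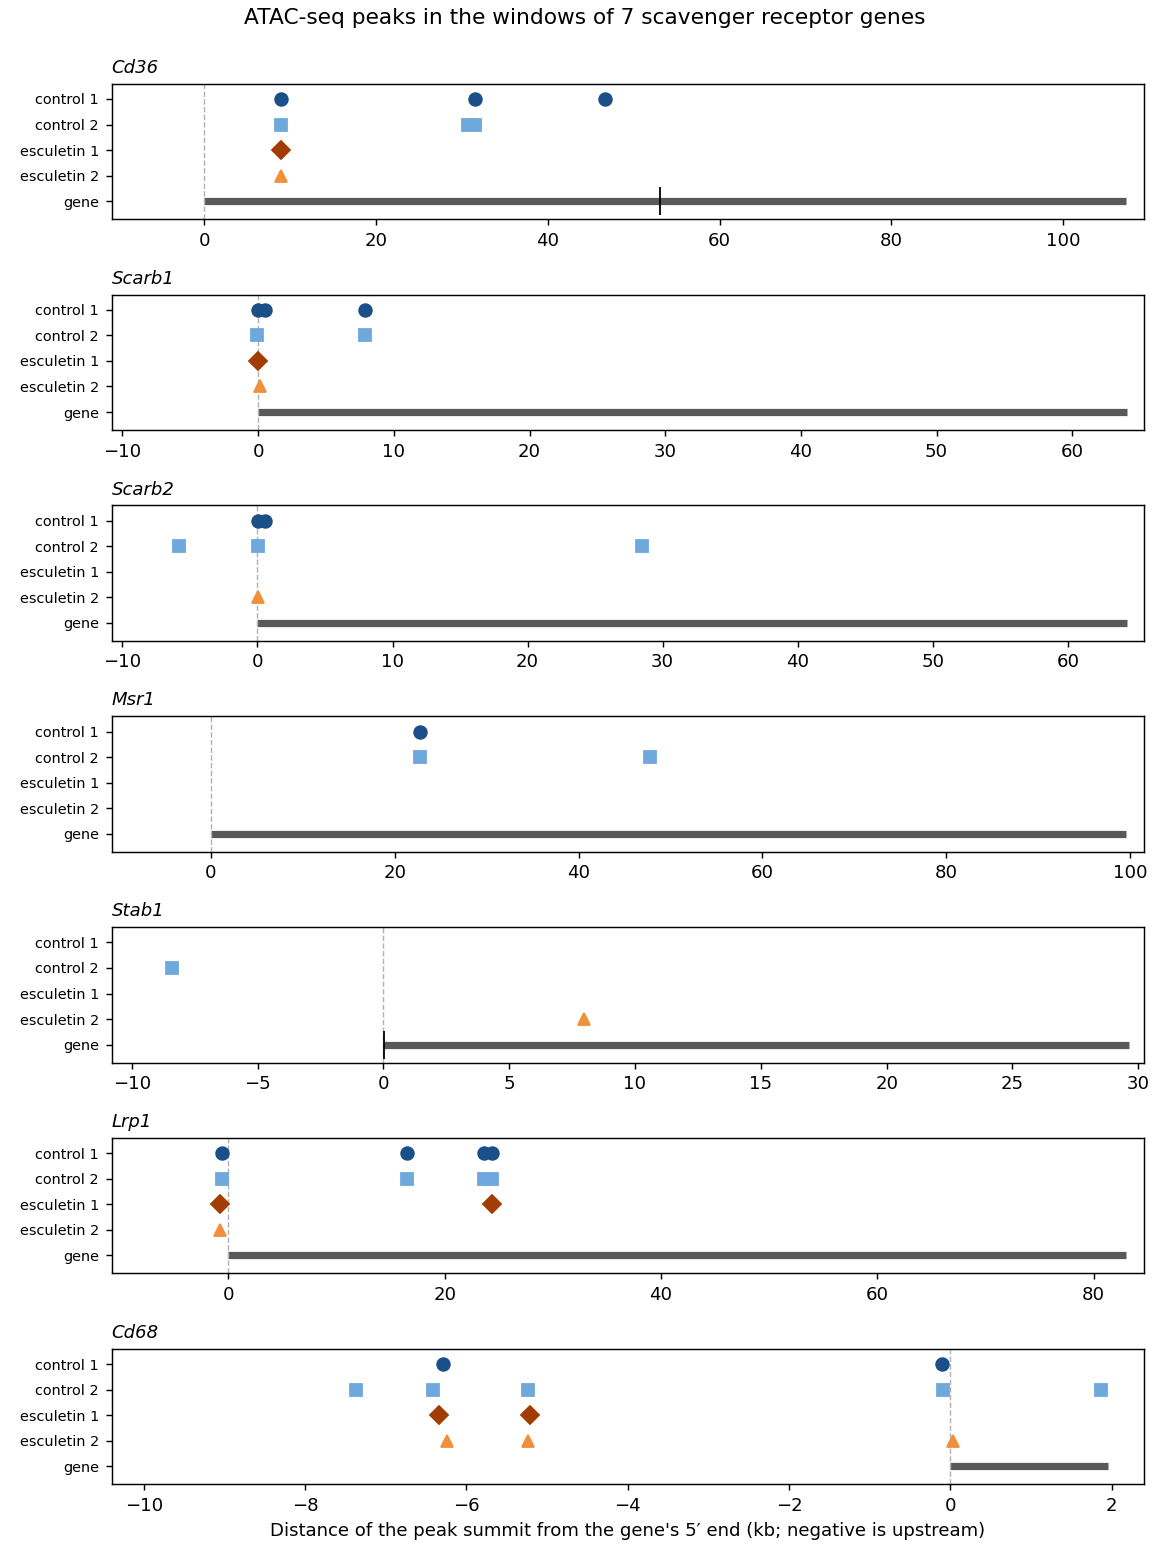
Summits of all peaks in the windows of the 7 receptor genes that had any, by library, plotted by distance from the 5′ end of the gene in kb (negative is upstream). The grey bar is the gene and black ticks mark a second annotated TSS. Peaks of several libraries line up at the promoters of Scarb1, Scarb2, Lrp1 and Cd68 and at 8.9 kb in Cd36, and most other peaks inside the genes belong to control libraries.

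At the level of genes, 7 of 10 windows held a peak in some library, and 4 held one in all 4 libraries (40%, against 33.5% of the windows of coding genes). Olr1, Marco and Cxcl16 held none (30%, against 36% of coding genes). A promoter peak was called in all 4 libraries at Scarb1 and Lrp1 (26.9% of coding genes have this pattern) and in all but esculetin replicate 1 at Scarb2 and Cd68 (6.15% of coding genes). The other 6 genes had no promoter peak in any library, as had 52.8% of coding genes. None had one in both control libraries only or in both esculetin libraries only, patterns held by 3.75% and 0.42% of coding genes.

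The class B receptors were examined first. Cd36 (chromosome 5, 17781690 to 17888959) encodes a receptor for oxidized LDL and long-chain fatty acids. It had no promoter peak at either TSS used here. These were the 5′ end at 17888959 and the second start at 17835896, whose upstream sequence is printed above. One region inside the gene, chr5:17879877-17880331, was called in all 4 libraries, with summits 8897 to 8945 bp from the 5′ end. The percentile of this peak was 80.7 and 20.1 in the controls (replicates 1 and 2) against 36.4 and 6.28 after esculetin. One esculetin value lay between the controls and the other below them, so the groups overlapped (50.4 ± 42.9 against 21.4 ± 21.3, SD, n = 2 per group). By coverage over background the region stood at 6.30 (95% Poisson interval 4.52 to 8.55) and 4.90 (2.99 to 7.57) in the controls and at 5.03 (3.26 to 7.43) and 3.90 (2.23 to 6.34) in the esculetin libraries, and these intervals, which cover counting error only, all overlapped. The control mean was 5.60 ± 0.988 and the esculetin mean 4.47 ± 0.799 (SD, n = 2 per group, exact permutation p = 0.67). On both scales the esculetin mean was the lower, with libraries that overlapped.

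The other Cd36 regions were listed in control libraries alone. The region chr5:17857346-17857593, 31487 to 31496 bp from the 5′ end, was called in both control libraries, at percentiles 55.1 and 32.7 and at 4.92 and 5.64 times background. A peak 30661 bp from the 5′ end was near the bottom of the list of control replicate 2 (percentile 0.737, 3.68 times background). Another at chr5:17842226-17842605, −6394 bp from the second TSS, was called in control replicate 1 (percentile 21.3, 3.84 times background). Both of these single-library peaks were the lowest over background in all 10 windows.

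Scarb1 (chromosome 5, 125277087 to 125341094) encodes SR-BI, the HDL receptor that takes up cholesteryl esters selectively and also binds modified LDL. Its promoter region, chr5:125340550-125341281, was called in all 4 libraries. The percentile of its strongest peak was 62.8 and 43.6 in the controls against 48.4 and 3.64 after esculetin, and coverage over background was 5.84 and 6.86 against 6.64 and 4.39. Esculetin replicate 1 lay between the control libraries on both measures and esculetin replicate 2 below both. The means of 6.35 ± 0.725 and 5.52 ± 1.59 times background differed by less than the SD of the esculetin group (n = 2 each, exact permutation p = 0.67). The summits lay at −30, −52, +11 and +142 bp from the TSS in control 1, control 2, esculetin 1 and esculetin 2, and control replicate 1 had a second promoter peak at +503 bp. A region 7.9 kb into the gene, chr5:125332949-125333372, was called in both control libraries only, at percentiles 55.1 and 20.1 and at 4.92 and 4.90 times background.

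Scarb2 (chromosome 5, 92441311 to 92505657) encodes LIMP-2, which carries β-glucocerebrosidase to lysosomes. Its promoter held the strongest promoter peaks among the receptors in both control libraries, at percentiles 85.4 and 76.9 and at 8.30 and 11.03 times background. In esculetin replicate 2 the peak was listed at percentile 56.5 and 7.32 times background (95% Poisson interval 4.94 to 10.4), and in esculetin replicate 1 none was listed. The 3 summits of the strongest peaks lay within the first 15 bp after the TSS, right after the G+C-rich stretch printed above, whose single Sp/KLF match ended at −10. The one esculetin value was below both controls, but its interval overlapped theirs (6.23 to 10.8 and 8.05 to 14.8). Peaks at 28439 bp and at −5816 bp were listed in control replicate 2 alone, at percentiles 20.1 and 59.5.

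Of the class A receptors, Msr1 (chromosome 8, 39543232 to 39642750), the classical receptor for acetylated and oxidized LDL, had peaks in the control libraries only and none at its promoter. The region chr8:39619686-39620104, 22781 to 22787 bp from the 5′ end, was called in both, at percentiles 41.7 and 20.1 and at 4.46 (95% Poisson interval 2.98 to 6.40) and 4.90 (2.99 to 7.57) times background. A second peak 47778 bp from the 5′ end was listed in control replicate 2 alone (percentile 36.5, 5.64 times background). Marco (chromosome 1, 120474538 to 120505024), which binds bacteria and particles as well as modified LDL, had no peak in any library. The nearest peak to its TSS lay 239648 to 239763 bp away, at the promoter of Steap3, in control replicate 1 and both esculetin libraries, and 102059 bp upstream in control replicate 2.

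**Figure D3:**
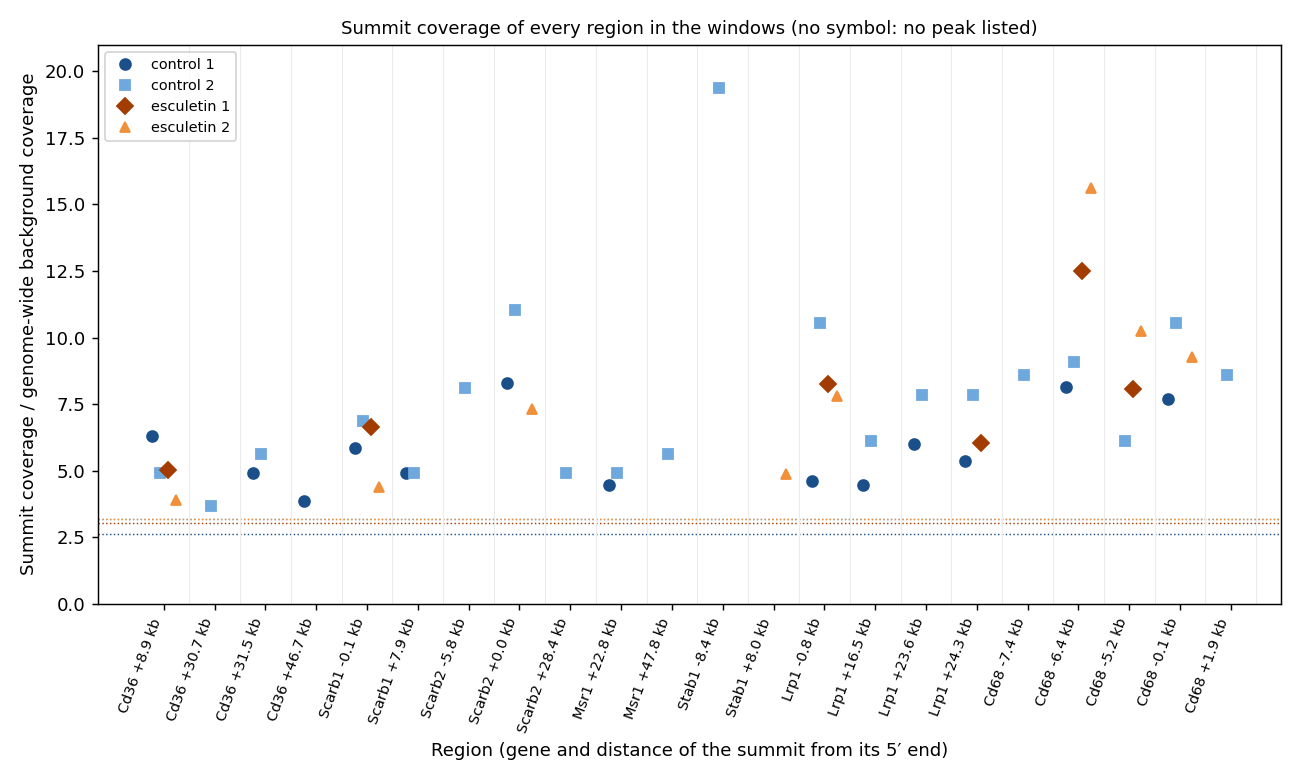
Coverage at the summit divided by genome-wide background coverage for each of the 22 regions, in every library that listed a peak there. The x axis gives the gene and the distance of the summit from its 5′ end, and dotted lines show the weakest peak listed in each library, between 2.61 and 3.19. Most regions inside genes stand below 8 times background, and the highest value, 19.4, is the peak of control replicate 2 upstream of Stab1.

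Olr1 (chromosome 6, 129479150 to 129507350), which encodes the lectin-like receptor LOX-1, also had no peak in its window. The nearest peak in control replicate 1 lay 10882 bp upstream of the 5′ end, just outside the window (percentile 26.6). In control replicate 2 and esculetin replicate 2 the nearest peaks lay 25776 and 25981 bp upstream, within 66 bp of the TSS of Gabarapl1 and 47 bp of that of 1700101I11Rik. In esculetin replicate 1 the nearest peak lay 307081 bp away, on the other side.

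Lrp1 (chromosome 10, 127538157 to 127621148) encodes the endocytic receptor that clears apolipoprotein E-rich remnants and many other ligands. Its promoter region, chr10:127621469-127622085, was called in all 4 libraries. The percentile was 23.5 and 75.6 in the controls against 60.8 and 53.2 after esculetin, and coverage over background was 4.61 and 10.5 against 8.25 and 7.81. Both esculetin values lay between the 2 control values on each measure. The control mean was 7.58 ± 4.19 and the esculetin mean 8.03 ± 0.317 times background (SD, n = 2 per group, exact permutation p = 1). The summits were at −561 and −580 bp in the controls and at −742 and −801 bp in the esculetin libraries, upstream of the printed stretch in every library. Local background at this promoter, 6.20 to 8.74, exceeded the genome-wide background of each library.

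Inside Lrp1, 3 further regions were listed, mostly in the controls. The region chr10:127596657-127596994 was called in all but esculetin replicate 2, at percentiles 29.0, 28.1 and 27.9 and at 5.38, 7.84 and 6.04 times background in control 1, control 2 and esculetin 1. The esculetin value lay between the controls. Its summits lay 566 to 601 bp from the TSS of Gm16217, a gene annotated within Lrp1. The neighbouring region chr10:127597325-127597611 was called in both control libraries only (percentiles 49.5 and 28.7, 5.99 and 7.84 times background), as was chr10:127604591-127605070 (percentiles 20.4 and 27.2, 4.46 and 6.13 times background). Whether these regions belong to Lrp1 or to the genes annotated over them, Gm16217 and Gm51820, cannot be told apart.

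Stab1 (chromosome 14, 31139017 to 31168651) had no promoter peak and 1 peak in each of 2 libraries. The peak at chr14:31176457-31177476 in control replicate 2 was the strongest of all receptor windows, at percentile 96.0 and 19.4 times background (95% Poisson interval 15.3 to 24.1). It lay −8380 bp from the 5′ end of Stab1 and inside the neighbouring gene Nisch, and no other library listed a peak there. The peak of esculetin replicate 2, 7969 bp into the gene (percentile 22.2, 4.88 times background), was 53 bp from the TSS of Gm52148. Neither peak was thus assigned to Stab1 alone. Cxcl16 (chromosome 11, 70454389 to 70459984), whose product SR-PSOX binds oxidized LDL and phosphatidylserine, had no peak in its window. In all 4 libraries the nearest peak lay beyond the 3′ end, 6647 to 7796 bp from the 5′ end, at percentiles 24.9, 80.7, 66.9 and 61.7 in control 1, control 2, esculetin 1 and esculetin 2, and between 270 and 1419 bp from the TSS of Med11.

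Cd68 (chromosome 11, 69664213 to 69666170) encodes macrosialin, a lysosomal glycoprotein used as a macrophage marker. Its promoter region, chr11:69666025-69666422, was called in all but esculetin replicate 1. The percentile was 60.9 and 44.3 in the control libraries and 53.9 in esculetin replicate 2, and coverage over background was 7.68, 10.5 and 9.27. The esculetin value lay between the controls on both measures. The summits lay at −105 and −86 bp in the controls, inside the stretch printed above, and at +35 bp in esculetin replicate 2, beyond its end. NFY matches at −84 to −80 and at −60 to −56 lay between the control summits and that of esculetin replicate 2. So did the C/EBP match at −43 to −36 and the AP-1 match at −24 to −18. The difference in summit position rests on this 1 esculetin library and was not tested. A peak at 1869 bp, at 95.5% of the length of the gene, was listed in control replicate 2 alone, at percentile 17.4 and 8.58 times the genome-wide background, where the local background coverage was 11.5.

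The Cd68 window also spans the start of Eif4a1, a translation initiation factor gene, and the regions upstream of Cd68 lie there. The region chr11:69672155-69672724 had summits at 14 to 166 bp from the TSS of Eif4a1 and at −6239 to −6419 bp from that of Cd68. Its percentile was 85.1 and 59.96 in the controls against 87.9 and 88.8 after esculetin. Coverage over background was 8.14 and 9.07 against 12.5 and 15.6, with means of 8.61 ± 0.655 and 14.0 ± 2.21 (SD, n = 2 each). It was the one region of the 4 shared by all libraries in which the groups did not overlap, with higher values in both esculetin libraries on both measures (exact permutation p = 0.33, the smallest possible). Over the shared regions of the whole series, 14.5% had a higher percentile and 18.8% a higher coverage over background in both esculetin libraries, while 31% had a lower percentile and 12.5% a lower coverage over background in both. The region chr11:69671162-69671702, inside Eif4a1 and 1016 to 1035 bp from its TSS, was listed at percentile 2.72 in control replicate 2 and at 47.1 and 56.0 in the esculetin libraries, at 6.13, 8.05 and 10.2 times background. Control replicate 1 had no peak there. A peak at −7374 bp, inside Senp3, was listed in control replicate 2 alone. Which of these genes the 3 regions serve cannot be told apart from position.

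**Figure D4:**
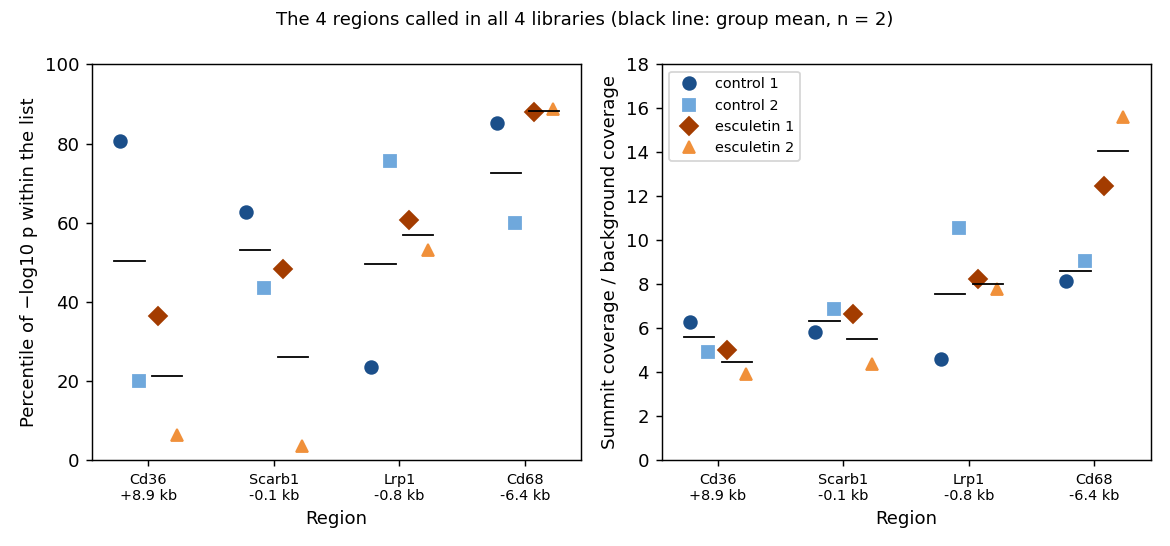
The 4 regions called in all libraries, as the percentile of −log10 p within each list (left) and as summit coverage over background (right). Symbols are single libraries, black lines are group means (n = 2), and the x axis names the gene and the place of the region. The groups overlap at Cd36, Scarb1 and Lrp1, and both esculetin libraries lie above both controls at the region upstream of Cd68, at the start of Eif4a1.

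Over these 4 shared regions together, the direction of the difference depended on the measure, on single libraries and, for coverage, on the region at the start of Eif4a1. The mean percentile was 63.0 and 49.8 in the controls against 58.4 and 38.0 after esculetin, or 56.4 ± 9.34 against 48.2 ± 14.4 (SD, n = 2, exact permutation p = 0.67). This difference of −8.24 turned to +8.46 without control replicate 1, to +1.45 without esculetin replicate 2 and to +12.3 among peaks with −log10 q of at least 5. The mean coverage over background was 6.22 and 7.84 against 8.10 and 7.93, or 7.03 ± 1.15 against 8.02 ± 0.124 (exact permutation p = 0.33). The same opposition was seen over the shared regions of the series, in which the median change was −4.61 percentile points over 6181 regions but +0.22 in coverage over background over the 6024 regions whose peaks could all be solved, which leaves out the strongest. Without the region at Eif4a1, both measures were lower in the esculetin group over the remaining 3 regions, at mean percentiles of 51.0 against 34.8 and mean coverages over background of 6.509 against 6.005 (exact permutation p = 0.67 for each). No difference between the groups in the height of the shared receptor regions was thus established.

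To place these genes among related receptors, 27 further genes of scavenger and lipoprotein receptors and their partners were counted in the same way. A promoter peak was called in all 4 libraries at 1 of them, against 26.9% of coding genes, in both control libraries only at 3 (3.75% of coding genes), in other patterns at 5 and in no library at 18 (52.8% of coding genes). The 1 called in all libraries was not a receptor gene but Lrpap1, which encodes a chaperone of LRP1 and its relatives. Its percentiles were 30.0 and 58.6 in the controls against 72.2 and 84.1 after esculetin, and its coverage over background was 4.92 and 7.11 against 8.05 and 10.2. Both esculetin libraries lay above both controls on each measure, as they did at 14.5% and 18.8% of all shared regions. Colec12, a collectin of the class A type, and the sorting receptors Lrp10 and Sorl1 had a promoter peak in the controls only, in both libraries. Among the other patterns, Cd14 was called in control replicate 2, Clec7a in control replicate 1, Lrp6 in the second replicate of each group, Lrp8 in all but esculetin replicate 2 and Lrp12 in all but esculetin replicate 1. None of the 27 had one in both esculetin libraries only. Per library, 7 and 8 of the 27 promoters were called in the controls and 2 and 3 in the esculetin libraries, where the shares of all coding genes were 40.7% and 42.1% against 30.1% and 37.9%. The corresponding numbers for the 10 receptor genes were 4 and 4 against 2 and 4.

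**Figure D5:**
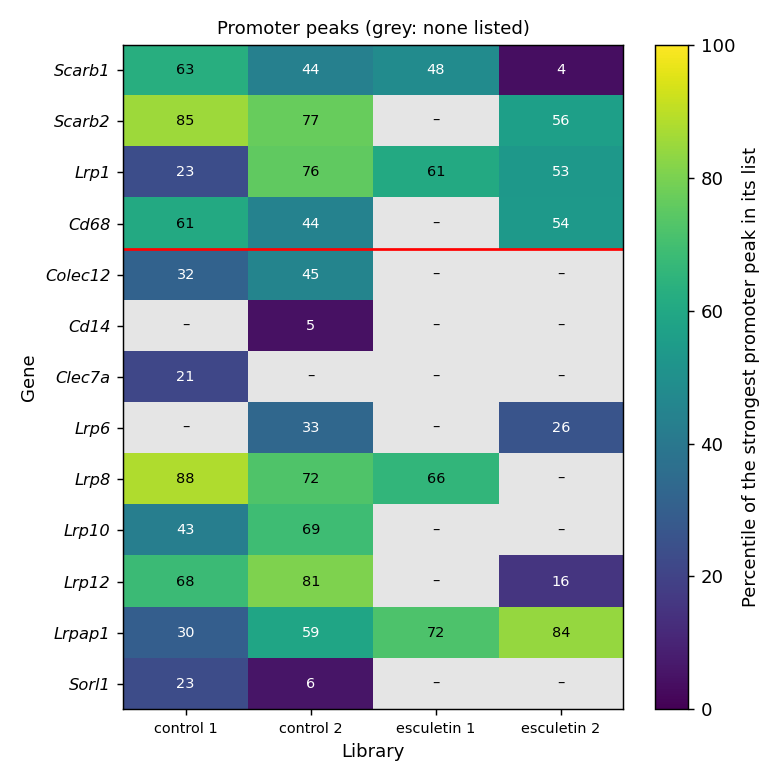
Percentile of the strongest promoter peak within its list for the 4 receptor genes with a promoter peak (above the red line) and for 9 further genes of scavenger and lipoprotein receptors and their partners with one (below it), by library. Grey fields with a dash have no promoter peak listed. Scarb1, Lrp1 and Lrpap1 are filled in all 4 columns, and most grey fields of the listed genes are in the esculetin columns.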

How the data were processed

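ATAC-seq peak lists of 4 libraries were analysed, grouped by the treatment in the sample labels. Peak names inside the lists labelled esculetin replicates 1 and 2 carry the marks E2 and E3, which leaves the group as labelled. Per the study's methods, reads were trimmed by the authors (Trim Galore) and mapped to mm10 (Bowtie2), PCR copies and reads with several mapping places were dropped (Sambamba), and peaks were called (MACS2). The deposited lists hold 1 set of peaks per library. Whether read ends were shifted for the Tn5 cut is not given in the sources used here. Dropping reads with several mapping places lowers signal in repeats and recent gene copies. For each peak the deposited lists hold a score that restates the −log10 q, the fold enrichment as a linear ratio, −log10 p, −log10 q and the position of the summit. All of these depend on depth. No read counts are in the lists, so the count model of the study was not run.

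Genes and TSSs were taken from RefSeq GRCm38.p6. The TSSs of a gene were its 5′ end and any start in the RefSeq promoter table. Msr1, Scarb1 and Cxcl16 had no entry there, so only their 5′ end was used. A peak at any further start of a gene was not counted as a promoter peak. Strand came from the RefSeq promoter table for 7 of the 10 genes and from the same symbol and chromosome in GENCODE vM39 for Msr1, Scarb1 and Cxcl16. Exons and introns were not used here. Peaks on chromosomes 1 to 19, X and Y were merged into regions when they shared at least 1 bp. Summit coverage and local background were solved from the fold and the Poisson p for peaks with −log10 p under 60, which succeeded for 100% of them, and the lowest local background was taken as the genome-wide value. The solver was tested on simulated data. Groups were compared with two-sided exact permutation tests over libraries, given with mean ± SD, and counting intervals are exact 95% Poisson intervals, which cover counting error only and do not treat PCR copies as a source of error. All 10 genes are named. Of other lists, genes were named by their promoter pattern, and 1 gene of the further receptors is not reported here. The genes, lists, motifs and tests were chosen with earlier results of these data known. Python 3.11.15, NumPy 2.4.6, pandas 2.3.3, SciPy 1.17.1 and matplotlib 3.10.9 were used.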

Additional observations from a re-analysis of the deposited data

How the results depend on the processing

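With 2 libraries a group, the exact permutation test could not reach 0.05, and peaks below the listing limit of a library were not seen. The lower number of receptor peaks in the esculetin group (difference of means −10.5) kept its direction under every alternative except equal lists of 8581 peaks. There it was +1.5 (exact permutation p = 0.67), with peaks at Eif4a1 among those kept. The difference ran from −13 to −8 when single libraries were left out. The equal lists also held 0 regions in all libraries, 0 in both controls only, 1 in both esculetin libraries only and 0 promoters in all libraries. With −log10 q of at least 5, 2 regions were shared by all, 1 was called in both esculetin libraries only and 1 promoter was called in all. With a window from 50 kb before the 5′ end, 7 regions were shared by all and 1 was in both esculetin libraries only. With a promoter of 500 bp, 1 promoter was called in all libraries. The mean percentile of the shared regions, −8.24 in the esculetin group relative to the control, turned to +12.3 with −log10 q of at least 5. As rank from the top it turned too (4835 ranks nearer the top), but ranks depend on list length and the esculetin lists were shorter. It also turned as coverage over background (+0.981), but coverage was −0.505 without regions at promoters of other genes. With single libraries left out it ran from −16.2 to 8.46, the ends being reached without esculetin replicate 1 and without control replicate 1, and was 1.45 without esculetin replicate 2. Regions in both controls only ran from 6 to 12 (12 without control replicate 1), those in both esculetin libraries only from 0 to 1, and promoters in all libraries from 2 to 4 (4 without esculetin replicate 1). The cause was not tested. With a replicate block the differences were −10.5 and −8.24 (paired exact permutation p = 0.5 for each), but the shared numbers only name the libraries. Leaving out promoters of other genes, alone or with coverage, and scaling to 10000 peaks were chosen after seeing the data. Of 62 alternatives, 42 kept the direction of a difference or left a count of regions or promoters within 1.5 times its value. Those with a replicate block are among the 42 by construction, since a block changes the p and not the difference. The size of a difference could still move, the mean peaks per library being 29 and 18 with the 50 kb window and the ratio 1.12 per 10000 peaks.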
